A study of Mus musculus with 4 samples.

Results

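Snail (gene Snai1) and Slug (gene Snai2) were mapped by chromatin immunoprecipitation and sequencing in cell lines from mammary tumours of MMTV-PyMT mice, in which the MMTV promoter drives the polyoma middle T oncogene. The peaks described here are the strong Snail peaks that lie at the end of a single protein-coding gene and do not overlap any Slug peak. They were selected on score, width, position and lack of Slug overlap from the Snail peak list of the mesenchymal line pBl.3G, labelled as high in Snail. A peak was kept when its score was 500 or more, its width below 2000 bp, and its midpoint within 1 kb of an end of exactly 1 protein-coding RefSeq gene. It also had to share not a single base with a peak of the Slug list of the epithelial line pBl.1G, labelled as high in Slug. Of 28375 Snail peaks, 3917 (13.8%) met the rule, at 3909 genes. Neither line was treated, and both were grown in the same serum-supplemented medium. The study asked how the 2 factors differ in driving epithelial-mesenchymal transition (EMT). There was 1 library of each factor, so factor, antibody and cell line cannot be told apart, and no difference given here has a replicate check. The Slug ChIP used the Slug (C19G7) rabbit monoclonal antibody, whereas the label of the Snail ChIP names an antibody to SNAIL + SLUG. The lists hold positions and scores but no reads or expression values, so depth is unknown, and the identity of the lines could not be set against marker genes.

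Snail family proteins are zinc finger repressors that read the E-box CAGGTG in DNA and recruit corepressors such as the Kdm1a-Rcor1 complex, histone deacetylases and Polycomb proteins. They are best known in mammary epithelium for shutting down Cdh1 and other junction genes during EMT. Most mammalian gene starts, above all those of broadly expressed genes, lie in CpG-rich stretches. Factors of the Sp, ETS, NRF1 and CREB families commonly bind there.

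Letters of the Snail E-box were in few of the promoter windows under these peaks, so promoters with and without it are shown first. The rest of each peak was not searched. For 3057 peaks that cover the nearest annotated start of their gene, the RefSeq promoter window (250 bases before the start and 50 from it onward, build GRCm38.p6, the assembly of mm10) was read. Of these windows, 412 (13.5%) held CAGGTG or its reverse complement CACCTG. The 8 stretches below come from the highest-scoring peaks with such a site before the start, where the stretch lay inside the peak and outside every annotated gene. They are written 5′ to 3′ along the gene, with the E-box in capitals.
Cyp20a1, chr1:60343073-60343222, plus strand: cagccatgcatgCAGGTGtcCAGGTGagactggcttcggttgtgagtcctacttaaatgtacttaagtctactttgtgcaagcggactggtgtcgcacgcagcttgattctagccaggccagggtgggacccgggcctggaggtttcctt
Caprin2, chr6:148896338-148896487, minus strand: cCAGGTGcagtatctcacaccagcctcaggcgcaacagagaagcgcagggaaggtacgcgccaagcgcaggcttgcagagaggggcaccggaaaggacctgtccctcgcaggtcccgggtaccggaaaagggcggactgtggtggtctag
Dusp11, chr6:85961762-85961911, minus strand: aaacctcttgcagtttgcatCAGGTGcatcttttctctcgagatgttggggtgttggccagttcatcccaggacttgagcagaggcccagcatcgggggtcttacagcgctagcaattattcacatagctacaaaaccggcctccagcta
AU041133, chr10:82127806-82127955, plus strand: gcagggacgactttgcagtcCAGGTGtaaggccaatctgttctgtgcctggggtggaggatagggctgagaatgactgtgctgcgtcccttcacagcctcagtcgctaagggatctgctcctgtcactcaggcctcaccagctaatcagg
Stard7, chr2:127269979-127270128, plus strand: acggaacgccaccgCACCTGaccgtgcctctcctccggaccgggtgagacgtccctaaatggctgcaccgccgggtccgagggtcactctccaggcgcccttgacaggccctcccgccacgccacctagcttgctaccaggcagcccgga
Timp2, chr11:118355412-118355561, minus strand: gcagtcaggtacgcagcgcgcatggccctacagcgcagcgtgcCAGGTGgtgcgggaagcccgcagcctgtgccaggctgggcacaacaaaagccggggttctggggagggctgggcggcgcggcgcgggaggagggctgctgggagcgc
Ankle2, chr5:110230854-110231003, plus strand: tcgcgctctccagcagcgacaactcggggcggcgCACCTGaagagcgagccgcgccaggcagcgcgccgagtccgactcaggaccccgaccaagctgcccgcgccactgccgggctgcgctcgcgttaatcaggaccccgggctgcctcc
Polr3k, chr2:181864139-181864288, plus strand: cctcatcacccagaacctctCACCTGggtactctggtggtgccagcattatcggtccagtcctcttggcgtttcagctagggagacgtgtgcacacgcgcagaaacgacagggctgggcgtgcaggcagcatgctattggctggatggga

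The sites in these promoters were at varied distances. Position -1 is the base just before the annotated start, and distances are to the first base of the site. Timp2, a secreted inhibitor of matrix metalloproteinases, had its E-box at -107, and Ankle2 at -116. Polr3k, a subunit of RNA polymerase III, had it at -201, Stard7, a phosphatidylcholine transfer protein, at -236, and Dusp11, an RNA phosphatase, at -224. Cyp20a1, a cytochrome P450, had a pair of sites at -215 and -207. Caprin2, an RNA-binding protein, had its site at -249, near the edge of the window, and AU041133 at -187. These peaks scored between 1661 for Polr3k and 1946 for Cyp20a1, ranks 190 and 52 among the 3917. In all, 372 windows held 1 site, 37 held 2 and 3 held 3.

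The 4 highest-scoring peaks whose window lacked the E-box, under the same limits, ranked higher. They were picked on score from a larger group, as 2645 of the windows read lacked the E-box and 412 held it. Their ranks therefore do not compare peaks with and without the E-box. Their last 150 bases before the start are shown with each GC box (GGGCGG or CCGCCC, the box of Sp and Klf factors) in capitals.
Hyls1, chr9:35570070-35570219, minus strand: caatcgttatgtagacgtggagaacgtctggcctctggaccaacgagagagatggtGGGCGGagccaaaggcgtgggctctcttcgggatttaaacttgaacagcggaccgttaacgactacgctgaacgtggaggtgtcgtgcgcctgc
Tmx1, chr12:70453004-70453153, plus strand: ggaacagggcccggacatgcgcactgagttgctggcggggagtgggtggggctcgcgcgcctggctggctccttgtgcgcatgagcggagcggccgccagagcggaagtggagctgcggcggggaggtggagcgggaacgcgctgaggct
Zfyve16, chr13:92530811-92530960, minus strand: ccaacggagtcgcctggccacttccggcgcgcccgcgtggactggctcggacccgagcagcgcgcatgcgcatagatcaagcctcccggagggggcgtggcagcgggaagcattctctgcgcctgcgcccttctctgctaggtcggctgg
Stt3b, chr9:115310469-115310618, minus strand: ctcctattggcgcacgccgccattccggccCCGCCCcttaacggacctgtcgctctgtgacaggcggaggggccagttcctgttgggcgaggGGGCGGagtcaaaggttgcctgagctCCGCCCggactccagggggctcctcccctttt

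Stt3b, a catalytic subunit of oligosaccharyltransferase, had 3 GC boxes in this stretch and scored 2223. Hyls1, a centriole protein needed for cilia, had 1 and scored 2304. Tmx1, a thioredoxin-like membrane protein (score 2255), and Zfyve16, an endosomal FYVE protein (score 2247), had none. Their 300-base windows were rich in CpG, with ratios of observed to expected CpG between 0.822 for Tmx1 and 1.03 for Hyls1. High Snail scores came with and without the letters CAGGTG in these examples, which were picked for their scores. These examples do not show whether the score goes with the E-box.

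Over all windows read, the E-box was less frequent in those under the strong Snail-only peaks than in those of promoters at large. It was present in 13.5% (95% Wilson interval 12.3 to 14.7), against 19.7% (19.2 to 20.3) of 21263 windows of protein-coding genes. These intervals, like those that follow, cover counting error only. Strong Snail peaks at a single gene end that did overlap a Slug peak held it in 25.4% (21.7 to 29.4) of 485 windows. Weaker Snail-only peaks at a single gene end, with scores below 500, held it in 17.4% (15.6 to 19.3) of 1624. Strong Snail-only peaks at the ends of several genes had a share as low, 12.95% (10.6 to 15.7) of 687, so the low share was not particular to peaks at a single gene end. The intervals of the Snail-only and the Slug-overlapping strong peaks do not touch. Both groups come from the same 2 libraries, and the Slug overlap that separates them was called in another cell line.

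Median GC content was 62.0% in the windows of the strong Snail-only peaks and 61.7% in those of the Slug-overlapping ones. Within windows of 50 to 60% GC the E-box share was 13.6% of 1011 against 25.6% of 164. At 60 to 70% GC it was 14.01% of 1342 against 25.9% of 224, with 20.7% of all 5635 protein-coding windows of that class. At 70% GC or more it was 13.8% of 536 against 25.7% of 74. The Snail-only share was the lower of the 2 in each of these classes, and also below 50% GC (7.74% of 168 against 17.4% of 23). Sites per 50 bases were fewest in the last 50 bases before the start, with 1.37 per 100 windows of the strong Snail-only peaks and 3.24 per 100 windows of all protein-coding promoters.

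Several other promoter motifs, searched on both strands of the same windows, were more frequent under these peaks than in promoters at large. The ETS letters CCGGAAG were in 22.6% (21.1 to 24.1) of the windows under strong Snail-only peaks and in 11.6% of all windows. GC boxes were in 72.7% against 46.2%. The NRF1 letters GCATGCGC were in 7.98% (7.07 to 8.996) against 3.52%, and the YY1 letters AAGATGGCG in 4.06% against 1.83%. The CREB letters TGACGTCA were in 4.35% (3.68 to 5.13) against 2.23%, and the Zbtb33 letters CTCGCGAG in 2.49% against 1.24%. The Myc E-box CACGTG was in 11.4% against 7.84%. Others were less frequent: the AP-1 letters TGANTCA, with N for any base, were in 3.63% against 6.99%, and TATAAA in 5.66% against 12.6%. CATTCC, bound by TEAD factors, was in 10.7% against 13.6%. CCAAT was in 40.6% against 38.2% and the ZNF143 letters CTACAATTC in 0.785% against 0.489%. Any E-box, CANNTG, which includes CAGGTG and CACGTG, was in 59.3% against 69.0%.

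Median GC was 62.0% under strong Snail-only peaks and 56.3% in all windows. Some of the motif gaps were smaller in some classes of GC content. All windows include those under the strong Snail-only peaks, so the 2 groups overlap. At 60 to 70% GC, GC boxes were in 81.5% against 77.04% and AP-1 letters in 3.65% against 4.12%. At 70% GC or more, GC boxes were in 93.3% against 92.5%. They were in 56.7% against 38.5% at 50 to 60% GC, and in 32.1% against 6.73% below 50%. AP-1 letters were in 4.55% against 6.82% at 50 to 60% GC, and in 4.76% against 11.9% below 50%. The ETS letters were in 23.3% against 19.6% at 60 to 70% GC, and in 25.2% against 12.6% at 50 to 60%. The NRF1 letters were in 9.39% against 5.68%, and the CREB letters in 4.10% against 3.496%, at 60 to 70% GC. At 50 to 60% GC the NRF1 letters were in 7.72% against 4.11%, and the CREB letters in 5.44% against 2.60%. At genes without a Snail peak within 1 kb, windows of 60 to 70% GC held GC boxes in 71.4% and ETS letters in 9.14%. They held the NRF1 letters in 3.21%, the CREB letters in 2.39% and the AP-1 letters in 4.66%.

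**Figure D1:**
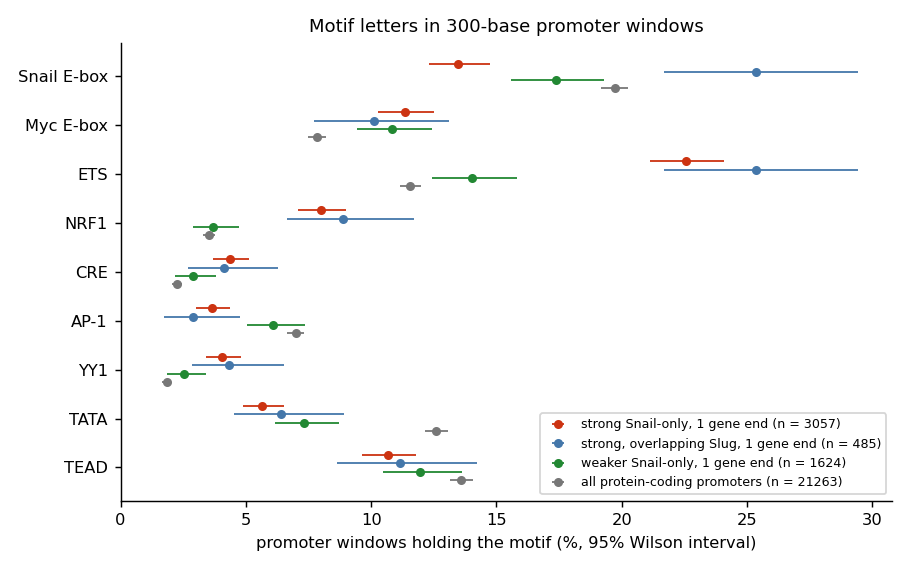
Share of 300-base promoter windows holding each motif (x axis, percent) for 9 motifs, with a point for each group of windows and bars for the 95% Wilson interval. Of the 4 groups drawn, the Snail E-box share is 13.5% under strong Snail-only peaks at a single gene end and 25.4% under strong peaks that overlap Slug, while the ETS, NRF1 and YY1 shares of both strong groups lie above those of all promoters.

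The strong peaks that overlapped Slug had much the same shares of these other motifs, with 25.4% (21.7 to 29.4) for ETS, 71.1% for GC boxes, 8.87% for NRF1 and 2.89% for AP-1. Among the motifs searched, the Snail E-box was thus where the 2 kinds of strong peak lay furthest apart. CpG-rich windows, with a ratio of observed to expected CpG of at least 0.6, made up 85.9% under strong Snail-only peaks and 85.6% under Slug-overlapping ones. They made up 69.8% under weaker Snail-only peaks, 47.7% of all protein-coding windows, and 22.2% at genes without a Snail peak within 1 kb. The windows of genes without a Snail peak held the E-box in 22.3% and the ETS letters in 4.19%.

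Within the strong Snail-only peaks, motif shares shifted somewhat with the score. Among the 765 windows with the lowest scores (up to 687) the E-box was in 16.6% (14.1 to 19.4), and among the 764 with the highest (1184 to 2869) in 12.04% (9.92 to 14.5). These intervals overlap, and the 2 score groups between held it in 12.2% and 13.1%. The CREB letters were in 2.88% (1.91 to 4.32) of the lowest-scoring and 6.41% (4.89 to 8.38) of the highest-scoring windows, and the NRF1 letters in 6.27% and 9.82%. Median GC was 60.7% in the lowest-scoring and 63.7% in the highest-scoring windows. The median score was 854 with the E-box and 895 without it, and 1018 with the CREB letters against 889 without. The score was part of the rule that chose these peaks, so these values are a description.

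The peaks sat on gene starts. The promoter table gave the strand for 3184 of the 3917 peaks, and 3165 of these (99.4%, 99.1 to 99.6) were nearer the start than the far end of their gene. The rule had admitted either end. Among the weaker Snail-only peaks at a single gene end 84.2% (82.8 to 85.6) were nearer the start, and among the strong Slug-overlapping ones 97.1% (95.2 to 98.2). Of the 3165 peaks, 3054 (96.5%) covered the nearest annotated start. The midpoint was within 250 bp of it for 2541 (80.3%). It lay on the gene side for 1865 (58.9%) and before the start for 1293, with a median of 33 bp into the gene (quartiles -88 and 148 bp). Of the midpoints before the start, 47 were over 1 kb before the nearest start in the promoter table, although within 1 kb of the end of the gene's RefSeq span.

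**Figure D2:**
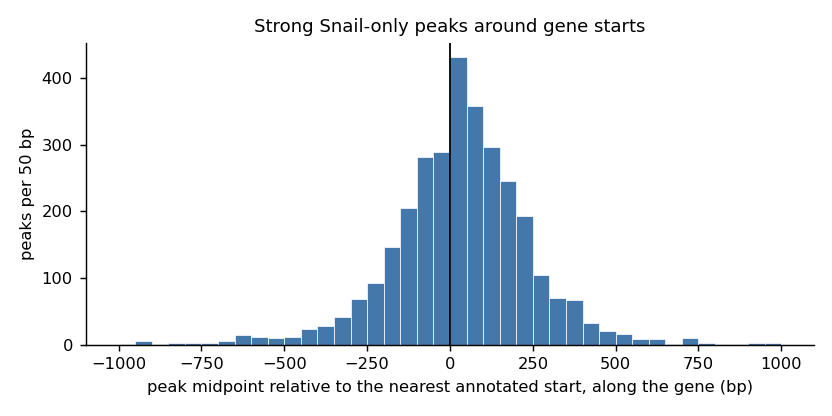
Distance in bp from the nearest annotated start to the midpoint of each strong Snail-only peak, along the direction of the gene, in bins of 50 bp. The peaks gather around the start with a median of 33 bp into the gene; the 47 peaks over 1 kb before a start are not drawn.

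Genes with alternative starts were often covered in part. Of the peaks at a start, 2663 were at a gene with 1 start in the table and 502 at a gene with several. Of those 502 peaks, 249 covered all starts of the gene, 227 covered some and 26 none. Non-coding genes were neighbours of some: 616 peaks (15.7%) also had an end of a non-coding gene or pseudogene within 1 kb, and for 535 of them at least 1 was a long non-coding RNA. The share was 18.03% for strong Slug-overlapping and 12.2% for weaker Snail-only peaks at a single gene end.

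Only 17 peaks lay near the far end of a gene and more than 1 kb from the gene's other end, and they are named here after their values were seen. The strongest, with a score of 1948, was at chromosome 13, 48878291 to 48879168, beyond the far end of Fam120a, an RNA-binding protein gene, where the non-coding Phf2os1 has an end. Fam120a also had a peak at its start, with a score of 798. The next, with a score of 1878, covered the far end of Tmem107, a ciliary membrane protein gene, next to the small nucleolar RNA gene Snord118. The far end of Mrpl58, a mitochondrial ribosome protein gene, had a peak of score 901 next to 3 transfer RNA genes. The other 14 had no non-coding gene end within 1 kb, among them Vim, Dlx2, Slc11a1 and Atf6b. The midpoint of the Bola1 peak was, however, 519 bp from another annotated start of that gene. At Nhlrc4 the next protein-coding gene end, of Pigq, was 1.01 kb from the midpoint, just outside the limit, and at Sec14l2 that of Mtfp1 was 1.41 kb away.

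Among 8 genes with 2 such peaks, 3 had 1 at each end: Fam120a, Mrpl58 and Sec14l2. The other 5, Brpf3, Cdkn2aip, Ints6l, Ngdn and Rmnd5a, had a pair of adjoining peaks around the start. At Rmnd5a, a subunit gene of a ubiquitin ligase, the pair at 71440324 to 71440750 and 71440759 to 71441690 of chromosome 6 scored 584 and 623.

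Peak scores and widths spread broadly. The median score was 882 (quartiles 678 and 1174) and the highest 2869. Of the peaks, 1490 (38.0%) scored 1000 or more and 39 (0.996%) scored 2000 or more. The median width was 1082 bp (quartiles 877 and 1349 bp), from 296 to 1999 bp. Wider peaks tended to score higher, with a rank correlation of 0.21 across the 3917 peaks, which share a library. The rule had limited both score and width, so this value describes the selected peaks only. The 649 strong Slug-overlapping peaks at a single gene end had medians of 944 for the score and 1192 bp for the width, and the 853 strong Snail-only peaks at the ends of several genes 989 and 1205 bp.

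**Figure D3:**
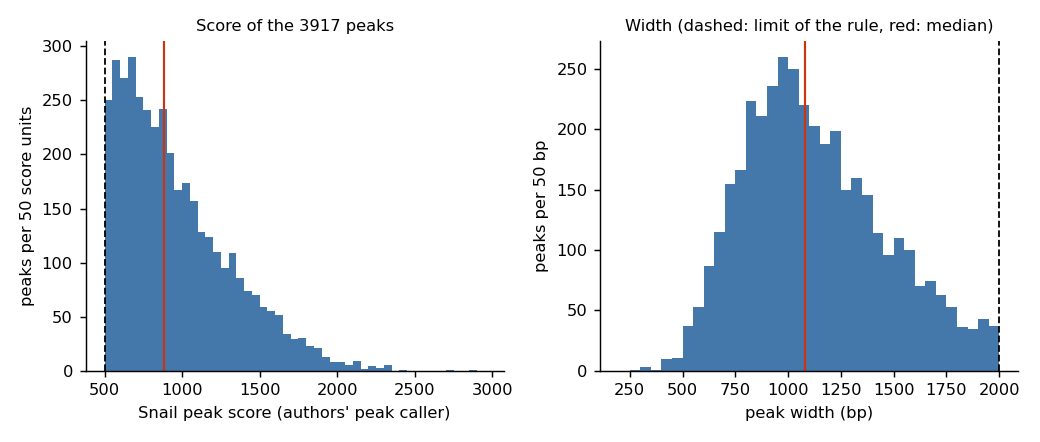
Scores (left, 50 units a bin) and widths in bp (right, 50 bp a bin) of the 3917 strong Snail-only peaks at single gene ends; dashed lines mark the limits of the rule and red lines the medians of 882 and 1082 bp. The scores thin out above the limit of 500, whereas most widths lie well below 2000 bp.

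The limits cut through a continuous range. The lowest scores inside were 500.1 at Macrod2, 500.2 at Pcbp2 and 500.8 at Lpp, and the highest outside were 499.9 at Man1c1, 499.9 at Zfp865 and 499.8 at Purb. The widest peaks kept were those of Mgat5 (1999 bp), Tead4 (1994 bp), Sema4b (1990 bp), Llgl1 (1989 bp) and Herpud1 (1989 bp). Among those just too wide were Pik3r1 (2004 bp, score 1390), Hspa1a (2005 bp) and Vezf1 (2007 bp). Midpoints just inside 1 kb were those of Efcab11 (999 bp), Vim (990 bp) and Tssc4 (988 bp), and just outside those of Rab11fip3 (1006 bp), Mtif2 (1018 bp, score 1743) and Gpr176 (1018 bp). The smallest gaps to a Slug peak were 5 bp at Kdm5c, 8 bp at Itpripl1 and 11 bp at Sumo2.

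The genes under the 10 highest scores served varied cell functions. Urgcp, which takes its name from promoting proliferation, carried the top score of 2869 at chromosome 11, 5761546 to 5762807. Wdr45b, a WD repeat protein of autophagy, scored 2748 at 121354010 to 121354960 of the same chromosome. Chrac1, a histone-fold subunit of a chromatin remodeller, scored 2420 at chromosome 15, 73089708 to 73091235, and Elk4, an ETS factor that works with SRF, scored 2347. Gpr19, an orphan receptor, scored 2344 and Cycs, which encodes cytochrome c, 2335. Cpsf6, a pre-mRNA cleavage factor, had a peak of only 523 bp with a score of 2312. Hyls1 scored 2304, Capn10, a calpain protease, 2278, and Pafah1b1, the dynein regulator known as Lis1, 2275. Urgcp, Wdr45b, Gpr19 and Cpsf6 were the genes among these 10 with any Slug peak closer than 10 kb to an end, with highest scores of 152, 90.6, 142 and 121 in the Slug list. Scores of the 2 lists do not compare strength.

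Across the genome, 17.9% of the 21887 protein-coding genes had such a peak. A further 4.27% had a best Snail peak within 1 kb that was strong but overlapped Slug, 3.23% one that was 2000 bp or wider, and 7.46% one at the ends of several genes. Another 15.9% had only weaker Snail peaks there, and 51.3% none. In all, 10662 genes (48.7%) had a Snail peak of any kind within 1 kb, and 3909 of these had a strong Snail-only one. The share with a strong Snail-only peak was 25.05% (21.5 to 28.98) of 511 genes on chromosome 18, 24.2% of 679 on chromosome 12, 12.7% (11.3 to 14.2) of 2030 on chromosome 7 and 10.1% (8.40 to 12.2) of 966 on the X chromosome. Among genes with any Snail peak within 1 kb, it was 51.8%, 42.9%, 32.1% and 32.5% on chromosomes 18, 12, 7 and X. None of 256 genes on the Y chromosome had a strong Snail-only peak (up to 1.48% by the Wilson interval). Only 1 of these 256 had a Snail peak of any kind within 1 kb, so the chromosome had next to no peaks to select from. Genes were also split by length into 5 groups of about equal number. The share was 6.39% in the shortest (up to 4.17 kb), 25.1% between 24.6 and 57.1 kb, and 21.3% in the longest.

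Genes of EMT and of epithelial identity are described first, each list against the 17.9% of all protein-coding genes. Among 22 EMT transcription factors 7 (31.8%, 16.4 to 52.7) had a strong Snail-only peak, an interval that holds the 17.9%. They were Tcf4, an E protein (score 1822), Foxc1 (825), Snai2 itself (783), the inhibitors Id3 (670) and Id2 (663), Twist1 (663) and Zeb1 (581). The Snai2 peak covered an end of the gene at chromosome 16, 14705158 to 14706152, and the nearest Slug peak was 73.6 kb away. The Twist1 peak spanned chromosome 12, 33956795 to 33958136. Snai1 and Id1 had strong peaks (944 and 808) that overlapped Slug, and that of Sox9 (644) was too wide. No Snail peak lay within 1 kb of an end of Zeb2, Prrx1, Foxq1, Gsc or Klf8, among others, and 6 more, such as Sox4 at 488, had weaker ones.

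Few of the epithelial genes had one, in lists too small to set apart from 17.9%. Of 27 junction genes 3 (11.1%, 3.85 to 28.1) did: the desmosomal plakophilins Pkp1 (1405) and Pkp2 (830), and Ctnnb1, which encodes beta-catenin (1005). Cdh1, Cldn4, Ocln, Tjp1, Dsg2 and 9 others had no Snail peak within 1 kb. Weaker peaks were at Epcam (50.7), Dsp (59.4) and Jup (63.9), among others. Of 19 epithelial transcription and splicing factors 1 (5.26%, 0.935 to 24.6), Klf4, had a strong Snail-only peak (835). The intervals of both lists hold the 17.9%. Klf5 had one that overlapped Slug (1075), and Grhl2, Esrp1, Ovol1, Ehf and 9 others had none.

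Among mesenchymal genes 7 of 32 (21.9%, 11.02 to 38.8) had one, an interval that also holds the 17.9%. Nt5e, which encodes the surface enzyme CD73, scored 1477, and Fn1 (fibronectin) 1159 at chromosome 1, 71652428 to 71654301. The matrix gene Tnc scored 856, the secreted phosphoprotein Spp1 825 and Itga5, the fibronectin receptor chain, 617. Vim counted through a peak of 1925 bp centred 990 bp beyond its far end, with a score of 646. The peak over its start was too wide, at 3839 bp, as were those of Cdh2 (2045 bp), Sparc and Axl. No Snail peak lay within 1 kb of Mmp2, Mmp9, Mmp14, Col1a2, Col3a1 or 11 other members.

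The list of Snail corepressors, chromatin modifiers and genes tied to Snail stability had a share above 17.9%. It was no higher than that of proteasome (51.3%), ribosomal (45.7%) or translation genes (43.9%). Of 42 corepressor, chromatin and stability genes 17 (40.5%, 27.0 to 55.5) had a strong Snail-only peak. Among the 38 of them with any Snail peak within 1 kb the share was 44.7%. Rcor1, the scaffold of the Kdm1a complex, scored 1873 and Kdm1a, the histone demethylase, 715. The Polycomb subunits Eed (1565), Suz12 (1415), Jarid2 (562) and Rnf2 (743) had one, and Ezh2 (1472) had a peak that was too wide. Csnk2a1, a catalytic subunit of casein kinase 2, scored 1439 and Sin3b 1104. Hdac2 scored 684, whereas the Hdac1 peak (959) overlapped Slug and that of Hdac3 (890) lay at the ends of several genes. Gsk3b, a kinase that marks Snail for degradation, had a strong peak (1666) that was too wide, and Fbxw7 one (1961) that overlapped Slug. Sin3a, Dnmt1, Dnmt3a and Loxl2 had no Snail peak within 1 kb.

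Signalling lists were all above the background in share. Snail peaks of any kind were also more common there, from 71.1% of Wnt and Notch genes to 97.4% of growth factor and MAP kinase genes, against 48.7% of all. Among genes with any Snail peak within 1 kb, shares ran from 40.5% (growth factor and MAP kinase) to 56.0% (actin and focal adhesion). Over all protein-coding genes with such a peak it was 3909 of 10662. Of 28 TGF-beta and BMP pathway genes 10 (35.7%, 20.7 to 54.2) had a strong Snail-only peak. Among them were the receptors Tgfbr1 (1280), Acvr1b (1000.8) and Acvr2a (525), and the ligand Tgfb3 (563). The Smads Smad4 (1946), Smad1 (792) and Smad2 (756), which carry the signal, and Smad6 (1090) and Smad7 (899), which block it, also had one, as did the ubiquitin ligase Smurf2 (1166). Of 38 Wnt and Notch genes 14 (36.8%, 23.4 to 52.7) did. Apc, part of the complex that degrades beta-catenin, scored 1755. The proteases Adam17 (1680) and Adam10 (1401), which cut Notch, and the ligand Jag1 (1174) also had one.

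Of 22 Hippo pathway genes 10 (45.5%, 26.9 to 65.3) had one. They included the kinase cofactors Mob1b (1453) and Sav1 (1269), the coactivator Yap1 (1036), its target Ccn2 (1329), and its DNA-binding partners Tead4 (709), Tead1 (673) and Tead2 (577). Of 32 actin and focal adhesion genes 14 (43.8%, 28.2 to 60.7) did, led by Vcl (vinculin, 1980), Ptk2 (focal adhesion kinase, 1316) and the formin Diaph1 (1189). Of 38 growth factor and MAP kinase genes 15 (39.5%, 25.6 to 55.3) did. The kinases Map2k1 (1448) and Map2k2 (1391), which activate ERK, were among them. The receptor gene Erbb2 scored 1288, while Egfr (1038) and Pik3r1 (1390) had peaks that were too wide.

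General cell machinery gave shares as high. Proteasome subunits had the highest of the 28 lists, with 20 of 39 (51.3%, 36.2 to 66.1), led by Psmd5 (1634), Psmd12 (1379) and Psma3 (1183). Cytosolic ribosomal proteins gave 37 of 81 (45.7%), among them Rpl21 (1303) and Rps13 (1197). Translation factors and tRNA ligases gave 47 of 107 (43.9%), with Eif3a (2022), Eif4g2 (1966) and Eif2b3 (1612) highest. The Mediator and RNA polymerase II list gave 38 of 89 (42.7%), with Med21 (2129), Taf5 (2055) and Gtf2b (1915). Cell cycle genes gave 32 of 75 (42.7%), with the spindle checkpoint gene Mad2l1 (1616), the kinase inhibitor Cdkn1b (1541) and the centromere gene Cenpn (1368). Shares this high in housekeeping lists stand beside those of the corepressor and signalling lists, so the latter are not shown to differ from broadly expressed genes.

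Trafficking genes gave 69 of 173 (39.9%), with Sec62 (2083), Sec61a1 (1716) and Arf4 (1645). Ubiquitin conjugating enzymes, deubiquitinases and cullins gave 39 of 107 (36.4%), with the cullin Cul5 (1688), Usp8 (1536) and Ube2n (1467). Zinc finger Zfp genes gave 142 of 397 (35.8%), with Zfp963 (2215), Zfp647 (1944) and Zfp438 (1872). Autophagy and lysosome genes gave 22 of 62 (35.5%), with the cathepsins Ctsb (1492) and Ctsl (1441) and with Atg5 (1425). In other lists many genes had strong peaks that failed a limit of the rule. Among genes with any Snail peak within 1 kb, the share was 34.9% for replication and repair, 33.7% for respiratory chain and 32.3% for splicing genes. Of 96 DNA replication and repair genes 30 (31.2%) counted, with Pold2 (1892), Pole4 (1806) and Orc5 (1622), and 23 more had a strong peak at the ends of several genes. Of 92 respiratory chain genes 28 (30.4%) counted, with Cycs (2335), Ndufv2 (1527) and Uqcrfs1 (1502), and 24 more lay at the ends of several genes. Of 67 splicing factors 20 (29.9%) counted, with Sf3b1 (1915), Prpf3 (1792) and Srsf5 (1723), and 16 more had peaks that were too wide. Histone methylases and demethylases gave 15 of 54 (27.8%, 17.6 to 40.9), with Setd4 (2197), Kdm3a (1282) and Kdm4a (1275). That interval holds the 17.9% of all protein-coding genes.

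Genes of other tissues lay at the opposite extreme. None of 1110 olfactory receptors (up to 0.345% by the Wilson interval), 353 vomeronasal receptors (up to 1.08%) or 28 neuronal genes (up to 12.1%) had a strong Snail-only peak. Snail peaks of any kind lay within 1 kb of only 5, 3 and 4 of these genes, so these lists had few peaks to select from. Among 28 immune cell genes 1, Cd14 (921), did, and among 28 hepatocyte genes 1, Trf, the transferrin gene (508). Both intervals reach 17.7%, and 5 immune cell and 3 hepatocyte genes had any Snail peak within 1 kb.

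**Figure D4:**
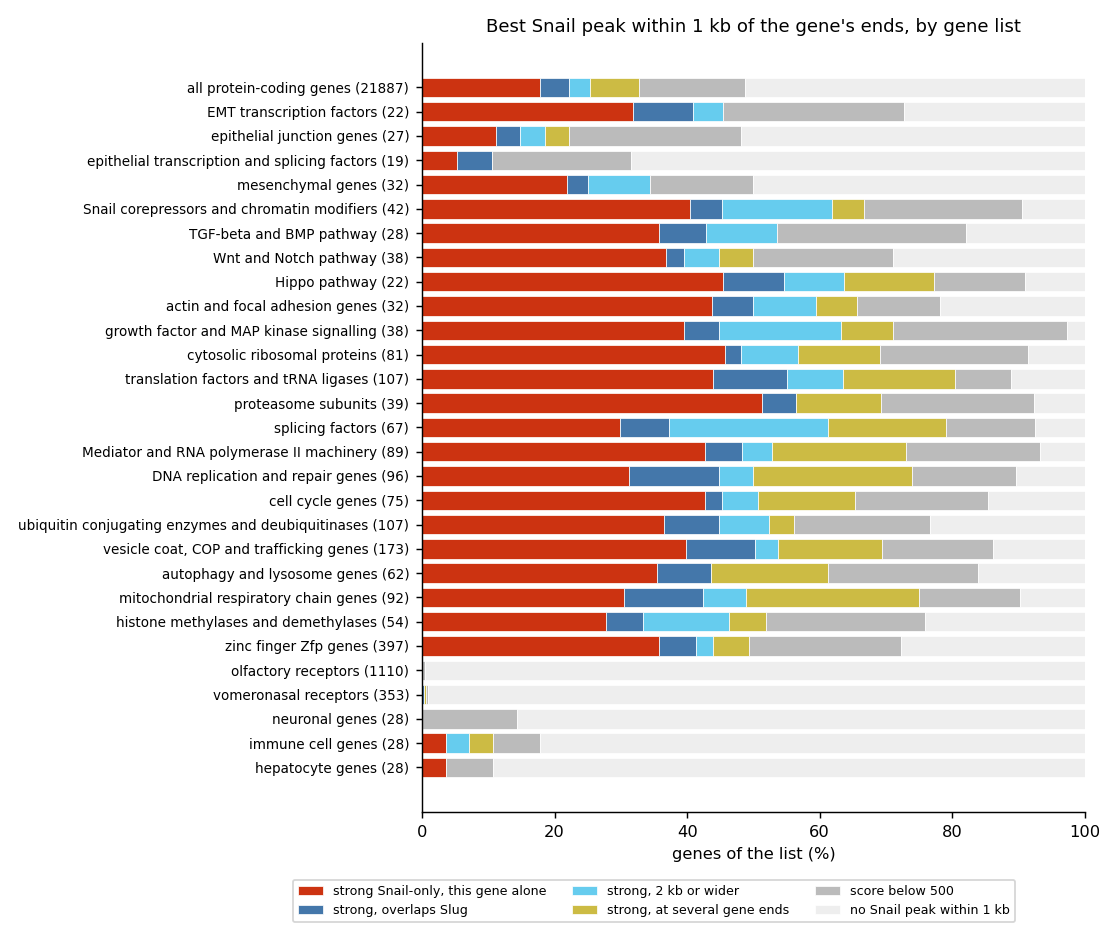
Genes of each list (rows, number of genes in brackets) by the kind of Snail peak within 1 kb of their ends, as a percentage of the list (x axis). Red segments, the strong Snail-only peaks, run from 0 of the receptor and neuronal lists to 51.3% of proteasome subunits, against 17.9% of all protein-coding genes.

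Slug peaks were absent under these peaks by rule but not from their surroundings. Of the 3909 genes, 1924 (49.2%, 47.7 to 50.8) had 1 or more Slug peaks less than 10 kb from an end. With no allowance for gene length, this was close to the 47.6% of all protein-coding genes. Other genes with a Snail peak within 1 kb had one in 61.2% (60.02 to 62.3) of 6753 cases, a group that includes the Slug-overlapping peaks. Part of that gap is built in, since the rule had removed peaks that overlap Slug from the former genes alone. Among those other genes, the 1632 whose best Snail peak was strong and at the ends of several genes had a share of 44.6% (42.2 to 47.0). Genes without a Snail peak there had one in 38.9% (38.0 to 39.8). Longer genes more often had a nearby Slug peak. From the shortest to the longest of the 5 groups, the share among genes with a strong Snail-only peak was 36.8%, 42.2%, 49.5%, 51.7% and 54.7%. Among all genes without such a peak it was 28.0%, 45.5%, 53.3%, 58.0% and 55.8%, the higher of the 2 in every group but the shortest. The latter genes include those whose Snail peak overlaps Slug. Genes with another Snail peak, Slug-overlapping ones included, ranged from 55.2% to 65.4% over the same groups.

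The nearest Slug peak was a median of 16.7 kb away (quartiles 6.81 and 34.0 kb). It was within 1 kb of 232 peaks (5.92%), within 100 bp of 28, and over 100 kb from 120 (3.06%). The highest Slug scores within 10 kb of an end were at Kmt5c (2794), Shq1 (2498), E030030I06Rik (2138) and the neighbours Rabepk and Gapvd1, which share the Slug peak at chromosome 2, 34764362 to 34764961 (1838). At Shq1 the Snail peak and that Slug peak were 98.6 kb apart, near opposite ends of the gene, and at E030030I06Rik 5.16 kb.

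**Figure D5:**
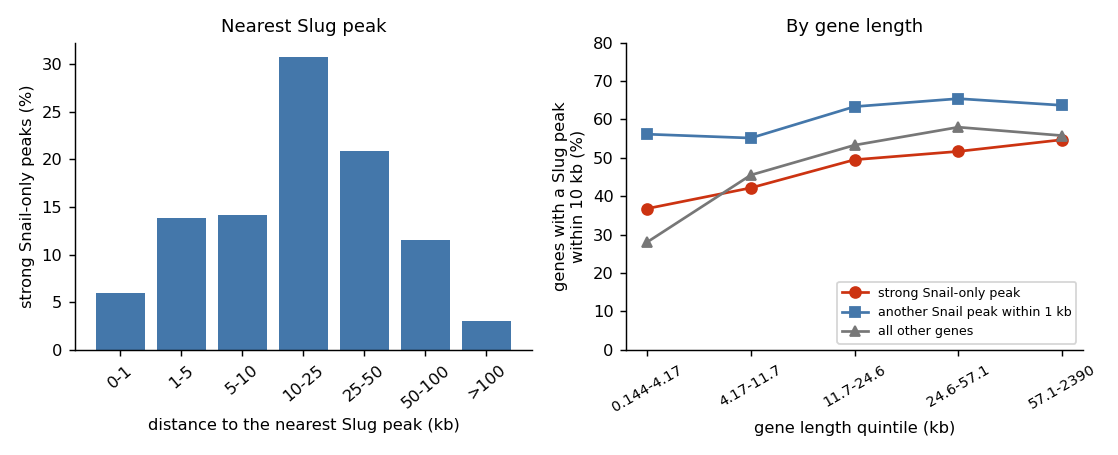
Left, distance in kb from each strong Snail-only peak to the nearest Slug peak, as a percentage of the 3917 peaks. Right, percentage of genes with Slug binding less than 10 kb from an end in 5 groups of gene length, for genes with a strong Snail-only peak (red), genes with another Snail peak within 1 kb (blue) and all genes without a strong Snail-only peak (grey); the blue genes include those whose Snail peak overlaps Slug, which the rule removed from the red ones.

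For 1761 peaks (45.0%) there was no further Snail peak within 10 kb of the gene's ends. The genes had a median length of 25.8 kb, against 17.2 kb for all protein-coding genes.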

How the data were processed

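Peak lists of 2 ChIP libraries were used, and the 2 input libraries were not analysed here. Per the labels' protocols, fixation was in 1% formaldehyde (10 min) and DNA was sheared to 200 to 500 bp. The submitters' processing notes name Bowtie, MACS 1.4.2 and the mm10 build. The deposited score of each peak is that of the authors' peak caller. Its scale, the settings of the caller and the control library were not given in the sources used here, and the score was used only within its own list. Depth is unknown.

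Genes came from RefSeq's table for GRCm38.p6 (21887 protein-coding). The promoter table held 79.9% of these and 81.2% of the 3909 genes described. With neither table giving peak sequence, motifs were sought in 300-base promoter windows whose start lay inside the peak. Peaks are about 1 kb wide, so sites elsewhere under a peak were not counted. Where a gene had several starts, the one nearest the midpoint was used. The all-promoter share counts every start, those under the peaks described included. Each gene of a list was placed by its best Snail peak, or as a member where any of its peaks met the rule.

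No test was run, with 1 library for each factor and peaks chosen on score and overlap. Shares carry 95% Wilson intervals. The peaks, the 28 gene lists and the 14 motifs were chosen with earlier results of these data known. Genes were named by a fixed rule: the 10 highest scores, the highest 3 of each list, those at the limits, and 12 EMT genes. Others are named to complete a list, and some genes the rule names are not reported here. Printed promoters additionally had to lie inside the peak and outside annotated genes, which was decided after the data were seen. Python 3.11.15, numpy 2.4.6, pandas 2.3.3, scipy 1.17.1 and matplotlib 3.10.9 were used, and the rule and motif search were tested on simulated data.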

Additional observations from a re-analysis of the deposited data

How the results depend on the processing

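The number of peaks was 2566 with a lowest score of 750, 1490 with 1000, and 1570 with widths below 1000 bp (2564, 1490 and 1566 genes). It stayed within 1.5 times of 3917 under the other 7 settings tried. The share nearer the start was 99.0% with no limit on width. The share of genes with a Slug peak within 10 kb was 46.0% when peaks with Slug within 1 kb were dropped and 54.2% when only Slug scores of at least 100 counted as overlap. It was 29.5% for a distance of 5 kb and 71.4% for 20 kb. The E-box share was 11.98% with a lowest score of 1000, 14.9% with widths below 1000 bp, and 59.3% for any CANNTG. The remaining values stayed within the main interval, and the cause of the shifts was not tested. No paired analysis was possible because each factor has 1 library. For the same reason no replicate could be left out. Without reads, peak height and the effect of depth on which peaks were called cannot be assessed.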
